A study of Caenorhabditis elegans with 7 samples.

Results

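The cuticle collagens described here are the *C. elegans* genes with a *col* symbol and a number, together with 12 genes first named for the body shape or blisters of their mutants, *rol-6*, *sqt-1*, *sqt-2*, *sqt-3*, *bli-1*, *bli-2*, *dpy-2*, *dpy-3*, *dpy-7*, *dpy-8*, *dpy-10* and *dpy-13*. Of 171 such genes in the RefSeq gene table, 169 had a matched probe on the array and 124 had a probe well above background on at least 3 of the 7 arrays, 115 of them with a *col* symbol and 9 from the list of 12. These 124 genes stood among 14224 genes that passed the same filter. RNA came from whole N2 (wild-type) worms that were given either 25 μM tomatidine, a steroidal alkaloid, or the vehicle DMSO (1%) from the L4 stage and were collected on adult day 7, with 3 arrays of tomatidine-treated and 4 arrays of vehicle-treated worms. The sample labels call the source of the control arrays untreated and their treatment vehicle, and they are called vehicle arrays below. The labels give 25 °C and OP50 bacteria as the general culture conditions. Each array carried Cy3-labeled cRNA of 1 preparation or, for a hybridization that the methods mention without identifying it, of the preparations combined.

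Cuticle collagens are secreted by the epidermis, processed, and cross-linked into the layered exoskeleton of the worm. Each carries blocks of a glycine-led triplet repeat that wind into a triple helix, and the genes form one of the largest families of the worm genome. Most are transcribed in waves around the larval molts, when a new cuticle is laid down under the old one, and some, such as *col-19* and *col-7*, mark the adult cuticle. Collagen levels have been tied to longevity in the worm, since some long-lived mutants keep collagen expression high through the transcription factor SKN-1, and tomatidine was studied here for its effect on aging.

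No collagen gene passed the test between tomatidine and vehicle when all 7 arrays were compared without a block. With limma, 0 of the 124 collagen genes were higher and 0 lower in tomatidine-treated worms at an adjusted p under 0.05, where 0.0773% of all genes tested were higher and 0% lower. Without adjustment, at the same threshold, *col-95* and *col-164* were higher (2 genes, against 0.752% of all genes) and *col-167* and *col-168* lower (2 genes, against 0.471%). By the t-test the methods name, 0 collagen genes were higher and 0 lower at p under 0.05, against 0.605% and 0.956% of all genes. The z-ratio of the methods, which takes no account of the spread between arrays, passed 1.5 in size upward for 18 collagens (14.5%, against 5.29% of all genes). It did so downward for 9 (7.26%, against 3.68%). The cut was used here alone, without the false discovery rate threshold that the methods name with it. Collagen signals varied more from array to array than those of other genes did, as a description. The median standard deviation within groups was 0.57 log2 units for the collagens and 0.34 for all genes. With the comparison limited to genes detected above background on every array, these medians were 0.51 for the 89 collagens and 0.31 for all.

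All levels below are normalized log2 signals, for which the log2 processed signals of each array were put on a common mean and spread, and a difference of 1 unit is a doubling of signal. Differences are tomatidine minus vehicle. On this scale the collagen genes had a median difference of 0.13, with quartiles of -0.05 and 0.27 and a range from -1.72 for *col-168* to 1.76 for *rol-6*. The median over all genes tested was -0.03. By sign alone, 83 of the 124 collagen genes (66.9%) were higher in tomatidine-treated worms and 41 lower, against 45.3% of all genes higher and 54.7% lower, and of the 89 well above background on every array 58 (65.2%) were higher, against 42.4% of all such genes. These shares are descriptions, since genes that vary together on 7 arrays are not independent. Leaving out vehicle replicate 3 alone turned the collagen median to -0.02. The median half-width of the 95% interval was 0.78 for a collagen gene and 0.56 for any gene. Differences of that size in single collagens were therefore not resolved. These intervals are not adjusted for the number of genes, whereas a call needs an adjusted p under 0.05. With limma on simulated data, 10.5% of collagens given a difference of 1 log2 unit were recovered, against 27.5% of other genes. For 2 units the shares were 64.5% and 85%, and for 3 units 82.3% and 98%. All 124 collagens and 200 other genes were changed at once there, with independent noise for each gene. An adjusted p under 0.05 is easier to reach in that setting than where few genes change. In bulk RNA of whole worms, a change in the epidermis's share of the RNA and a change of collagen RNA within the epidermis cannot be told apart.

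**Figure D1:**
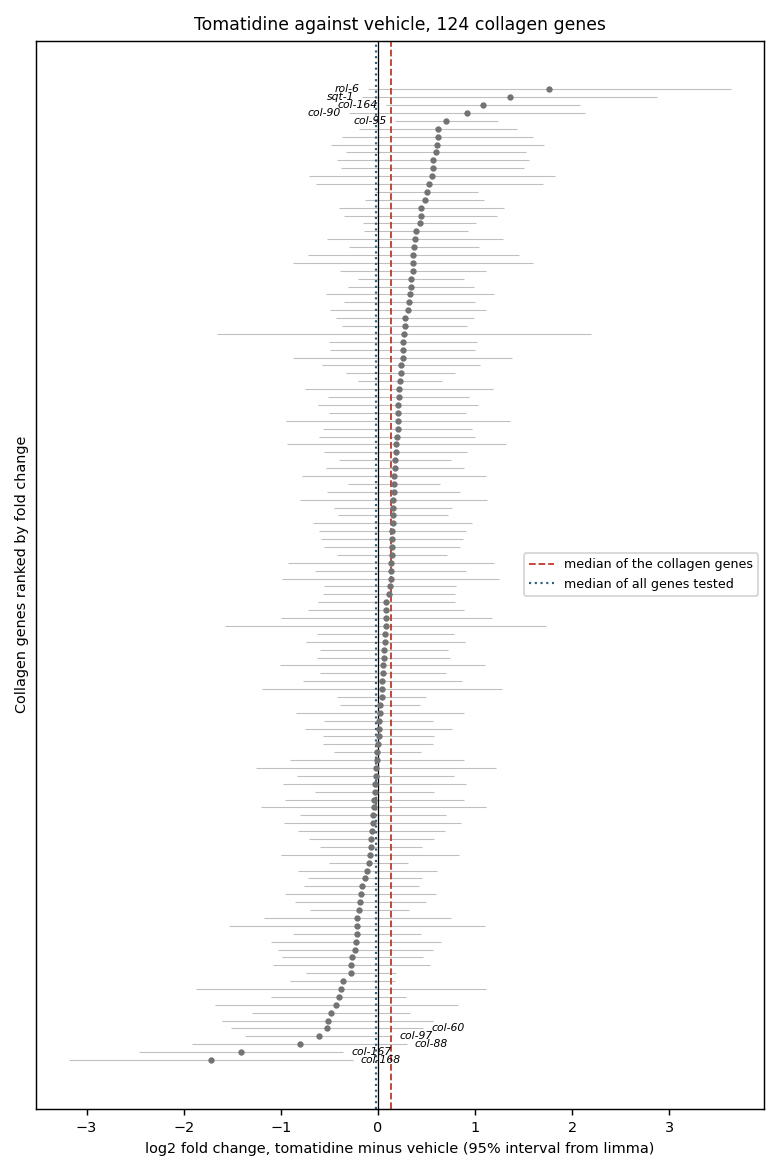
Difference between tomatidine and vehicle in log2 units (x axis) for the 124 collagen genes, ranked from lowest to highest; points are limma estimates, bars are 95% intervals, the dashed red line is the median of the collagens (0.13) and the dotted blue line the median of all genes tested (-0.03). The intervals of *col-95*, *col-164*, *col-167* and *col-168* leave out 0, and *rol-6* at 1.76 and *col-168* at -1.72 stand at the ends.

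The arrays differed in background, which bears on dim collagens. Negative control spots had a net signal of 237 on tomatidine replicate 1 and of 424 on vehicle replicate 2, and of 75.1 to 114 on the other 5 arrays. Of the 124 collagens, 106, 118 and 123 were well above background on tomatidine replicates 1, 2 and 3, against 124, 90, 104 and 122 on vehicle replicates 1, 2, 3 and 4. Vehicle replicate 2 also carried 12398 probes at a single floor value of 3.46, and *rol-6* and *col-65* were among them. Tomatidine replicate 1 most often gave the highest collagen signal (36 genes), while vehicle replicates 2 and 3 most often gave the lowest (34 and 46 genes).

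*rol-6* and *sqt-1* encode collagens in which particular mutations twist the worm into a helical roll, and rolling alleles of *rol-6* depend on SQT-1 for their effect. For *rol-6*, the signals were 5.67, 7.11 and 8.61 on tomatidine replicates 1, 2 and 3, against 7.19, 3.46, 3.86 and 6.97 on vehicle replicates 1, 2, 3 and 4. Vehicle replicates 2 and 3 were not well above background, and the other vehicle arrays lay within the tomatidine range. The difference was 1.76 ± 0.87 (SE, 95% interval -0.11 to 3.64, unadjusted p = 0.0628, adjusted p = 0.9998 with limma). *sqt-1* gave 6.78, 6.64 and 9.23 on the tomatidine arrays, against 7.07, 5.51, 4.55 and 7.64 on the vehicle arrays. Again vehicle replicates 2 and 3 were low and not well above background, tomatidine replicate 3 was the highest, and the groups overlapped. Its difference was 1.35 ± 0.71 (SE, unadjusted p = 0.0766, adjusted p = 0.9998 with limma).

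Tags in the sample descriptions join the arrays into 3 pairs, tomatidine replicate 1 with vehicle replicate 2 (pair A), tomatidine replicate 2 with vehicle replicate 3 (pair B) and tomatidine replicate 3 with vehicle replicate 4 (pair C), with vehicle replicate 1 in none. What the tags stand for is not given in the sources used here, and the support for the pairing is uneven: deviations from the group means correlated at r = 0.61, 0.19 and 0.51 in pairs A, B and C, but tomatidine replicates 2 and 3 also correlated with the unpaired vehicle replicate 1, at 0.35 each. The arrays of pairs A and C share a slide and those of pair B do not. The arrays of pair A also had the highest background, and its part in their correlation was not tested. Within these pairs *rol-6* was higher in tomatidine-treated worms by 2.21, 3.26 and 1.64 in pairs A, B and C, and *sqt-1* by 1.27, 2.08 and 1.59. With the tags as a block in limma, vehicle replicate 1 has no partner and does not enter the difference. Its signals were 7.19 for *rol-6*, the highest of the vehicle arrays, and 7.07 for *sqt-1*, both well above background. With this block, *rol-6* rose by 2.37 ± 0.33 (SE, adjusted p = 0.00128) and *sqt-1* by 1.65 ± 0.27 (SE, adjusted p = 0.00789). They were the 2 collagen genes called in that fit, with 0 lower, where 0.162% of all genes were called higher and 0% lower. Before adjustment the same fit placed 13 collagens higher and 3 lower at p under 0.05, against 2.56% and 1.5% of all genes.

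Both calls included dim vehicle values, whose part in the calls was not tested. In 2 of the 3 pairs the vehicle array was not well above background for either gene. In pair C it was for both, with differences of 1.64 for *rol-6* and 1.59 for *sqt-1*. The size of the difference over all pairs changed with the signal used. With the tag block, normexp background correction and quantile normalization together, the differences were 0.28 for *rol-6* (adjusted p = 0.0298 with limma) and 0.28 for *sqt-1* (adjusted p = 0.194). That correction adds an offset of 50 to every signal, which by construction shrinks the differences of dim probes, and the raw signal, which keeps the background, does so too. With the tag block and the raw median signal, without any background subtraction, they were 0.67 (adjusted p = 0.136) and 0.51 (adjusted p = 0.9996). Blocking on the slide in place of the tags gave 0.86 for *rol-6* and 0.70 for *sqt-1*, neither past the test, and before adjustment placed 0 collagens higher and 2 lower (*col-97* and *col-167*), against 0.576% and 1.3% of all genes. These combined settings with the tag block were added after the data had been seen.

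**Figure D2:**
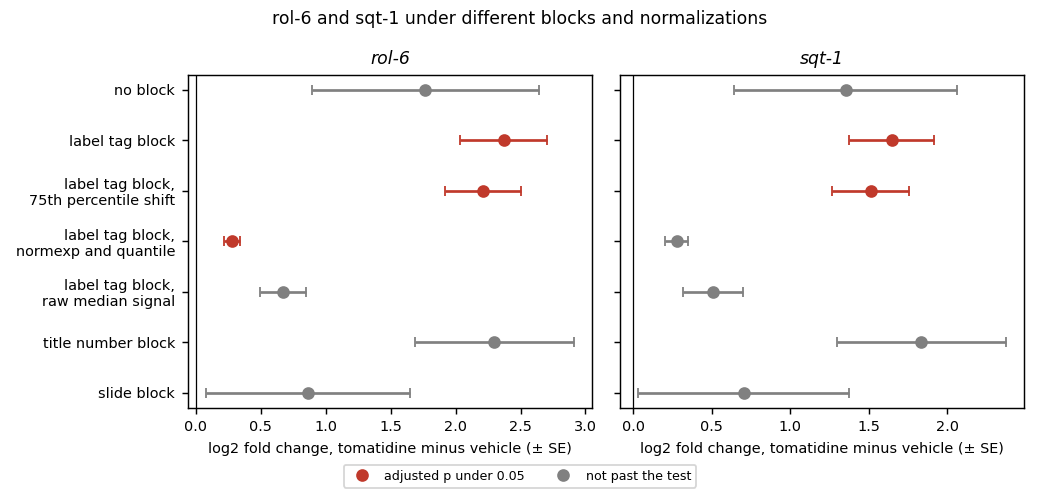
Difference between tomatidine and vehicle in log2 units (x axis) for *rol-6* and *sqt-1* under 7 settings (rows); points are limma estimates with bars of 1 SE, and red marks an adjusted p under 0.05. All 14 estimates lie above 0, *rol-6* falls to 0.28 with normexp correction, and *sqt-1* is past the test in 2 of the 7 settings.

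The other genes listed by name that were kept, which encode collagens of the cuticle's furrows and of body shape, had positive differences of 0.04 to 0.59, and none passed the test. Without tomatidine replicate 3, 4 of these 7 turned negative, *dpy-2* (-0.41), *dpy-8* (-1.24), *dpy-10* (-0.10) and *dpy-13* (-0.0073). *sqt-2*, in which mutations also cause rolling, gave 6.98, 7.41 and 8.68 on the tomatidine arrays, against 7.23, 7.01, 6.27 and 7.88 on the vehicle arrays, a difference of 0.59 ± 0.43 (SE). *dpy-13*, whose loss shortens the worm, gave 7.63, 8.11 and 9.56, against 8.45, 6.28, 7.43 and 9.35 in vehicle, a difference of 0.56 ± 0.59 (SE). For both, tomatidine replicate 3 was the highest array. *sqt-3*, which encodes a collagen that keeps the elongated embryo in shape, had 17.67, 16.31 and 16.64 in tomatidine-treated worms and 15.97, 17.33, 16.64 and 16.76 in vehicle, and differed by 0.20 ± 0.38 (SE). Its second kept probe, well above background on 4 arrays, gave a difference of 1.30 and ran against the brighter probe (r = -0.57), and the mean of both probes gave 0.75 ± 0.24 (SE, unadjusted p = 0.00803, adjusted p = 0.9999 with limma). The level of *sqt-3* therefore depended on the probe.

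*dpy-2*, *dpy-3*, *dpy-7*, *dpy-8* and *dpy-10* encode collagens of the annular furrows, the circumferential grooves whose loss sets off epidermal stress responses in the worm. *dpy-3* leaned upward, with 12.10, 11.14 and 11.70 in tomatidine-treated worms against 10.995, 11.65, 10.94 and 11.42 in vehicle, a difference of 0.39 ± 0.25 (SE, unadjusted p = 0.136 with limma). It was higher in all 3 tag pairs, by 0.45, 0.20 and 0.28. *dpy-10* was nearly level at 9.73, 9.44 and 10.02 against 9.92, 9.63, 9.63 and 9.58 in vehicle, while its other kept probes gave differences of -0.58 and -0.06. In *dpy-2* and *dpy-8*, tomatidine replicate 3 stood above all other arrays. The *dpy-2* signals were 6.001, 6.43 and 8.54 in tomatidine-treated worms, against 6.85, 6.13, 6.50 and 7.02 in vehicle. Those of *dpy-8* were 4.25, 5.03 and 9.15, against 6.28, 5.999, 4.41 and 6.81 in vehicle, which gave it the largest standard deviation within groups of the 124 genes, 1.85 log2 units. *dpy-8* was not well above background on tomatidine replicate 1 and vehicle replicate 3. *dpy-7* was not kept, since it was well above background on tomatidine replicate 3 and vehicle replicate 1 alone, and *bli-1* and *bli-2*, whose products form the struts of the adult cuticle, were well above background on 0 arrays.

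**Figure D3:**
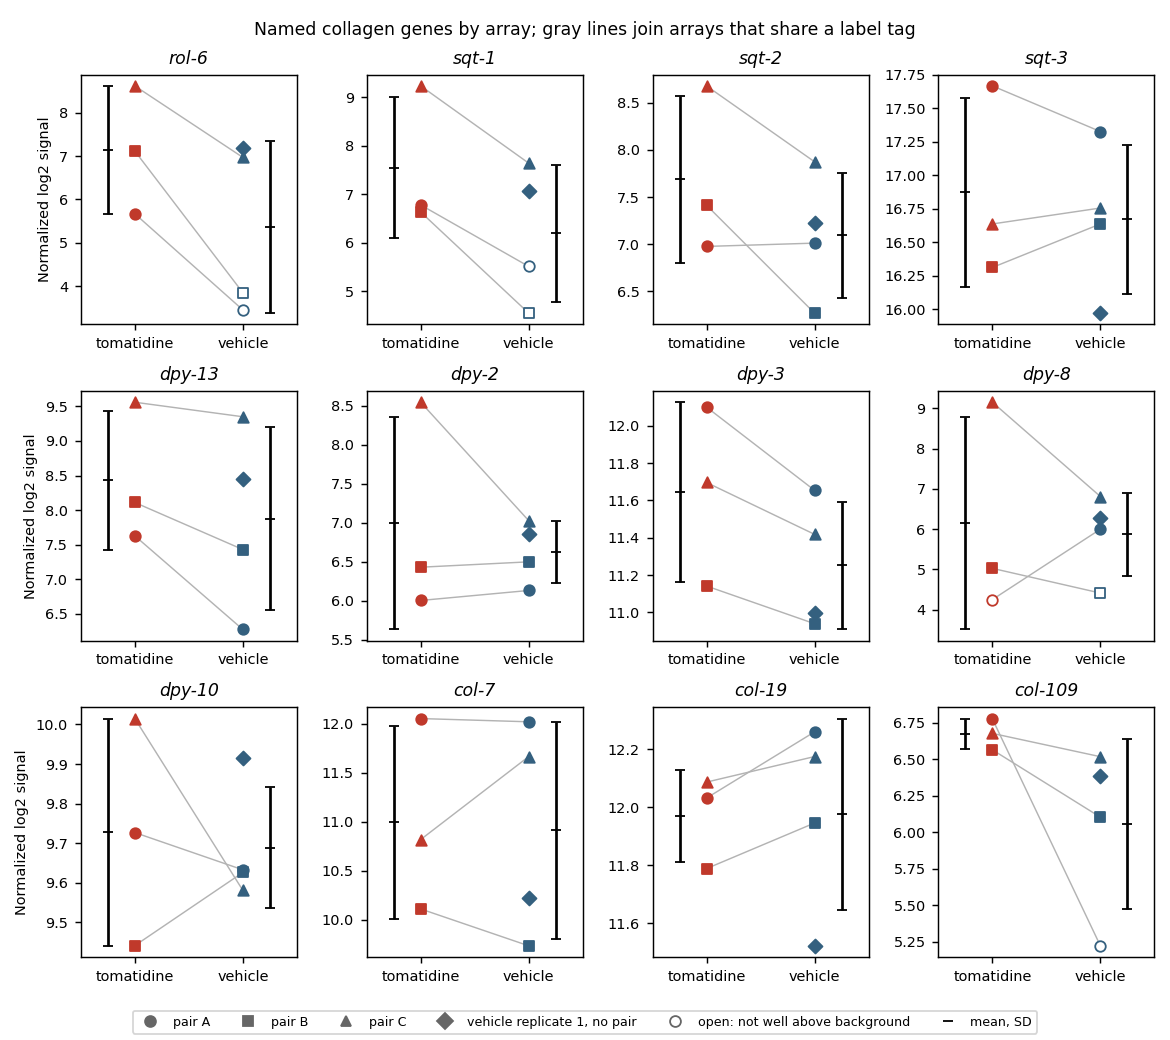
Normalized log2 signal (y axis, a separate scale for each gene) of 12 collagen genes on the 3 tomatidine arrays (red, left) and 4 vehicle arrays (blue, right); gray lines join arrays that share a label tag, open symbols are not well above background, and the black bars give mean and SD. *rol-6* and *sqt-1* slope down toward vehicle in all 3 pairs, *col-7* separates by pair, and *col-109* is the one gene whose groups do not overlap.

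*col-109* was the only collagen gene whose groups did not overlap with tomatidine above (0.816% of all genes did so), and 0 collagens had vehicle above (1.27% of all genes). It gave 6.78, 6.57 and 6.68 in tomatidine-treated worms, against 6.38, 5.22, 6.10 and 6.52 in vehicle. Vehicle replicate 4 lay just below tomatidine replicate 2, vehicle replicate 2 was not well above background, and the difference of 0.62 ± 0.38 (SE) did not pass the test (unadjusted p = 0.126 with limma).

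*col-95* and *col-164*, named after their values were seen, had the lowest unadjusted p among the collagens that were higher. *col-95* gave 11.91, 11.99 and 11.78 on the tomatidine arrays, against 10.995, 10.94, 10.85 and 11.96 on the vehicle arrays, so that vehicle replicate 4 stood with the treated arrays. The difference was 0.71 ± 0.25 (SE, unadjusted p = 0.0133, adjusted p = 0.9998 with limma), and within pair C, which holds vehicle replicate 4, it was -0.18. *col-164* gave 6.70, 6.66 and 8.18, against 6.41, 5.04, 6.30 and 6.67 in vehicle, a difference of 1.08 ± 0.47 (SE, unadjusted p = 0.0364, adjusted p = 0.9998 with limma). It was higher in all 3 pairs, by 1.67, 0.37 and 1.51, but in the first of these the vehicle array was not well above background.

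In the other direction stood *col-167* and *col-168*, also named after their values were seen, which lie next to each other on chromosome X. *col-167* gave 6.99, 5.50 and 6.19 in tomatidine-treated worms, against 7.34, 6.40, 8.58 and 8.22 in vehicle, a difference of -1.41 ± 0.49 (SE, unadjusted p = 0.0122, adjusted p = 0.9998 with limma). *col-168* gave 6.98, 4.24 and 5.58, against 7.25, 5.45, 8.47 and 8.10 in vehicle, a difference of -1.72 ± 0.68 (SE, unadjusted p = 0.0242, adjusted p = 0.9998 with limma). The probes of these genes followed each other across the 7 arrays (r = 0.98, as a description). Vehicle replicates 3 and 4 were the highest arrays for both genes. *col-168* was not well above background on tomatidine replicate 2 and vehicle replicate 2, so the sizes of its differences that involve these arrays are not measured exactly.

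The tag pairs disagreed for this gene pair. *col-167*, well above background on all 7 arrays, differed by 0.60 in pair A, by -3.08 in pair B and by -2.03 in pair C. *col-168* differed by 1.53 in pair A, where the vehicle array was not well above background, by -4.23 in pair B, where the tomatidine array was not, and by -2.52 in pair C, where both were. On slide 2 alone, with tomatidine replicates 2 and 3 against vehicle replicate 4, the differences were -2.38 for *col-167* and -3.19 for *col-168*. These are values against 1 vehicle array, which has no spread of its own, and for *col-168* 1 of the 2 tomatidine arrays was not well above background. Without the tomatidine and vehicle arrays of highest background, tomatidine replicate 1 and vehicle replicate 2, *col-168* fell by 3.03 (adjusted p = 0.0196 with limma), with tomatidine replicate 2 still among the arrays. A second kept probe of *col-167* gave a difference of -0.08 and was well above background on 4 arrays, so the probes of this gene did not give one answer.

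Earlier work on long-lived worms singled out *rol-6*, *col-10*, *col-13*, *col-120* and *col-144* as collagens under the control of SKN-1, the worm counterpart of Nrf2. None of these passed the test without a block, and *rol-6* alone passed it with the tag block. *col-10* gave 7.32, 7.50 and 7.52 in tomatidine-treated worms, against 7.10, 6.46, 7.21 and 7.53 in vehicle, a difference of 0.37 ± 0.31 (SE). *col-13* differed by 0.20 ± 0.36 (SE), with -0.21 and -0.55 by its other kept probes, and *col-144* by -0.27 ± 0.38 (SE), and *col-120* was well above background on 0 arrays. *col-12*, next to *col-13* on the chromosome, differed by -0.17 ± 0.28 (SE).

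The adult collagens gave a like result. *col-19*, which is switched on at the transition to adulthood, was level, with 12.03, 11.79 and 12.09 in tomatidine-treated worms against 11.52, 12.26, 11.94 and 12.17 in vehicle, a difference of -0.01 ± 0.21 (SE, 95% interval -0.45 to 0.44). *col-7* gave 12.05, 10.11 and 10.82, against 10.22, 12.02, 9.73 and 11.66 in vehicle. Its arrays spread over about 2 log2 units in each group, and its difference of 0.08 ± 0.51 (SE) was small beside that. *col-62* did not pass the filter, and of the dauer collagens *col-2* was well above background on 1 array, while *col-6* had no matched probe.

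Much of the variation within groups was shared among collagens. *col-7* was taken as a seed after its values were seen, and 30 of the 123 other collagen genes (24.4%) correlated with it at r of at least 0.8 over the 7 arrays, against 5.17% of all genes. Such correlations describe the same 7 arrays, with whatever RNA and background each one carried. All 31 were well above background on every array. Their mean deviation from each gene's own mean was 0.75, -0.50 and -0.03 on tomatidine replicates 1, 2 and 3, against -0.48, 0.68, -0.62 and 0.20 on vehicle replicates 1, 2, 3 and 4. Both arrays of pair A were thus high and both arrays of pair B low, and 25 of the 31 differences between tomatidine and vehicle were positive with a median of 0.14. The rise on pair A was not particular to collagens. On tomatidine replicate 1 and vehicle replicate 2, germline markers deviated by 0.243 and 0.408 and intestinal markers by 0.384 and 0.326. Epidermal markers deviated by -0.108 and -0.222 there, and molt markers by -0.496 and -0.395. These arrays also had the highest background, whose part was not tested.

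Among the genes that followed *col-7* were *col-80*, *col-140*, *col-98*, *col-124*, *col-160*, *col-178* and *col-179*, together with *sqt-3* and *dpy-3*. *col-80* gave 12.87, 10.43 and 11.53 on the tomatidine arrays, against 10.89, 12.67, 10.18 and 12.53 on the vehicle arrays. *col-140* gave 15.72, 14.28 and 14.75, against 14.08, 15.89, 14.18 and 15.64 in vehicle. In both genes tomatidine replicate 1 and vehicle replicate 2 were the highest array of their group and tomatidine replicate 2 the lowest of its own. In all 7 arrays *col-80* differed by 0.04 ± 0.58 and *col-140* by -0.03 ± 0.44 (SE). On slide 2, where vehicle replicate 4 is the only vehicle array and has no spread of its own, the differences were -1.55 and -1.13.

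A second set followed *sqt-1*, also chosen as a seed after its values were seen. At the same r, 12 of the 123 other collagens (9.76%) did so, against 4.66% of all genes, and the 13 genes were *sqt-1*, *sqt-2*, *rol-6*, *dpy-8*, *dpy-13*, *col-13*, *col-17*, *col-35*, *col-75*, *col-129*, *col-151*, *col-170* and *col-176*. None of them was in the *col-7* set, and 80 collagens were in neither. Their mean deviation was -0.30, 0.00 and 1.24 on the tomatidine arrays, against 0.23, -0.81, -0.96 and 0.60 on the vehicle arrays. Within each tag pair the tomatidine array was the higher one, pair C was the highest pair, and all 13 differences were positive, with a median of 0.53. Since *sqt-1* itself differed between the groups, genes chosen for following it were bound to lean the same way, and 5 of the 13 were well above background on every array.

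**Figure D4:**
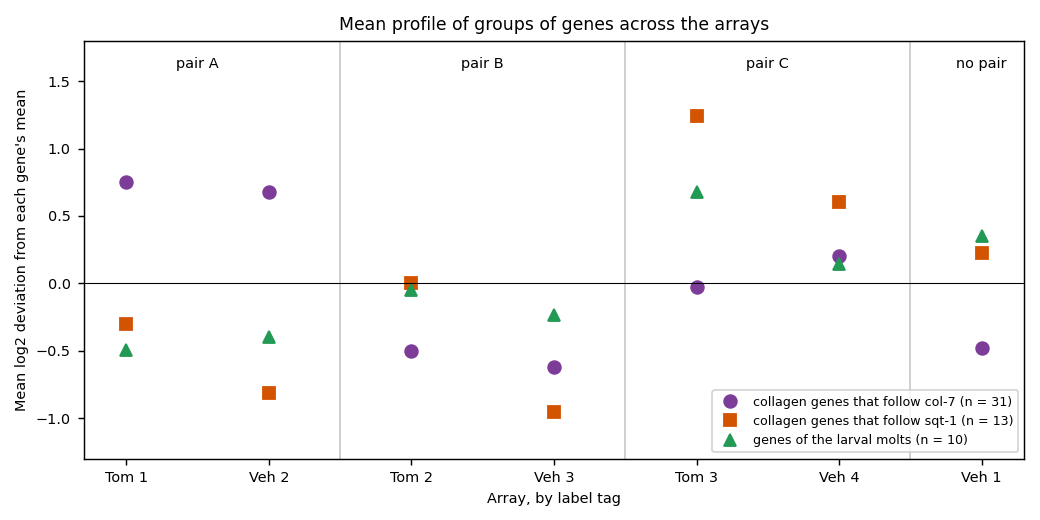
Mean deviation of each gene's normalized log2 signal from its own mean (y axis) on each array, ordered by label tag (x axis), for the 31 collagens that follow *col-7* (circles), the 13 that follow *sqt-1* (squares) and 10 genes active at the larval molts (triangles). The *col-7* set is high on both arrays of pair A, while the *sqt-1* set and the molt genes both peak on tomatidine replicate 3, at 1.24 and 0.68.

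Markers of the larval molts were compared with the *sqt-1* set by array. Of 12 such genes, among them *mlt-10*, *mlt-11*, *noah-1* and the protease gene *nas-37*, 10 were kept and *fbn-1* and *ptr-18* were not. Their mean level was 6.58, 7.02 and 7.75 on tomatidine replicates 1, 2 and 3, against 7.42, 6.68, 6.84 and 7.21 on vehicle replicates 1, 2, 3 and 4. Tomatidine replicate 3 was the highest array for the molt genes and for the *sqt-1* set, but the lowest was tomatidine replicate 1 for the molt genes and vehicle replicate 3 for the *sqt-1* set. In pair A the molt genes were lower on the tomatidine array, where the *sqt-1* set was higher. The part of larvae or of molting in the collagen values was not tested. No molt marker passed the test, and their median difference was 0.16. Of 10 markers of the early embryo 4 were kept, with means of 5.96 to 6.89 in tomatidine-treated worms and 5.49 to 6.94 in vehicle, and their median difference was 0.12.

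The epidermis, which makes the collagens, was present by its markers, with 7 of 8 kept (*wrt-2* was not). Their mean level was 8.42, 8.56 and 8.56 on the tomatidine arrays, against 8.87, 8.31, 8.30 and 8.69 on the vehicle arrays, and their median difference was -0.004. Vehicle replicates 2 and 3 were the lowest arrays here as they were for many collagens, and the part of this in the collagen values was not tested. Intestinal markers lay higher in tomatidine-treated worms in 8 of 8 genes, against 45.3% of all genes, with a median difference of 0.20 and none past the test. Their mean level was 14.86, 14.46 and 14.57 on the tomatidine arrays, against 13.95, 14.8, 14.36 and 14.34 on the vehicle arrays. Vehicle replicate 1 was thus the lowest, and vehicle replicate 2 lay above tomatidine replicates 2 and 3. Germline markers, 9 of 9 kept, had a median difference of -0.07.

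**Figure D5:**
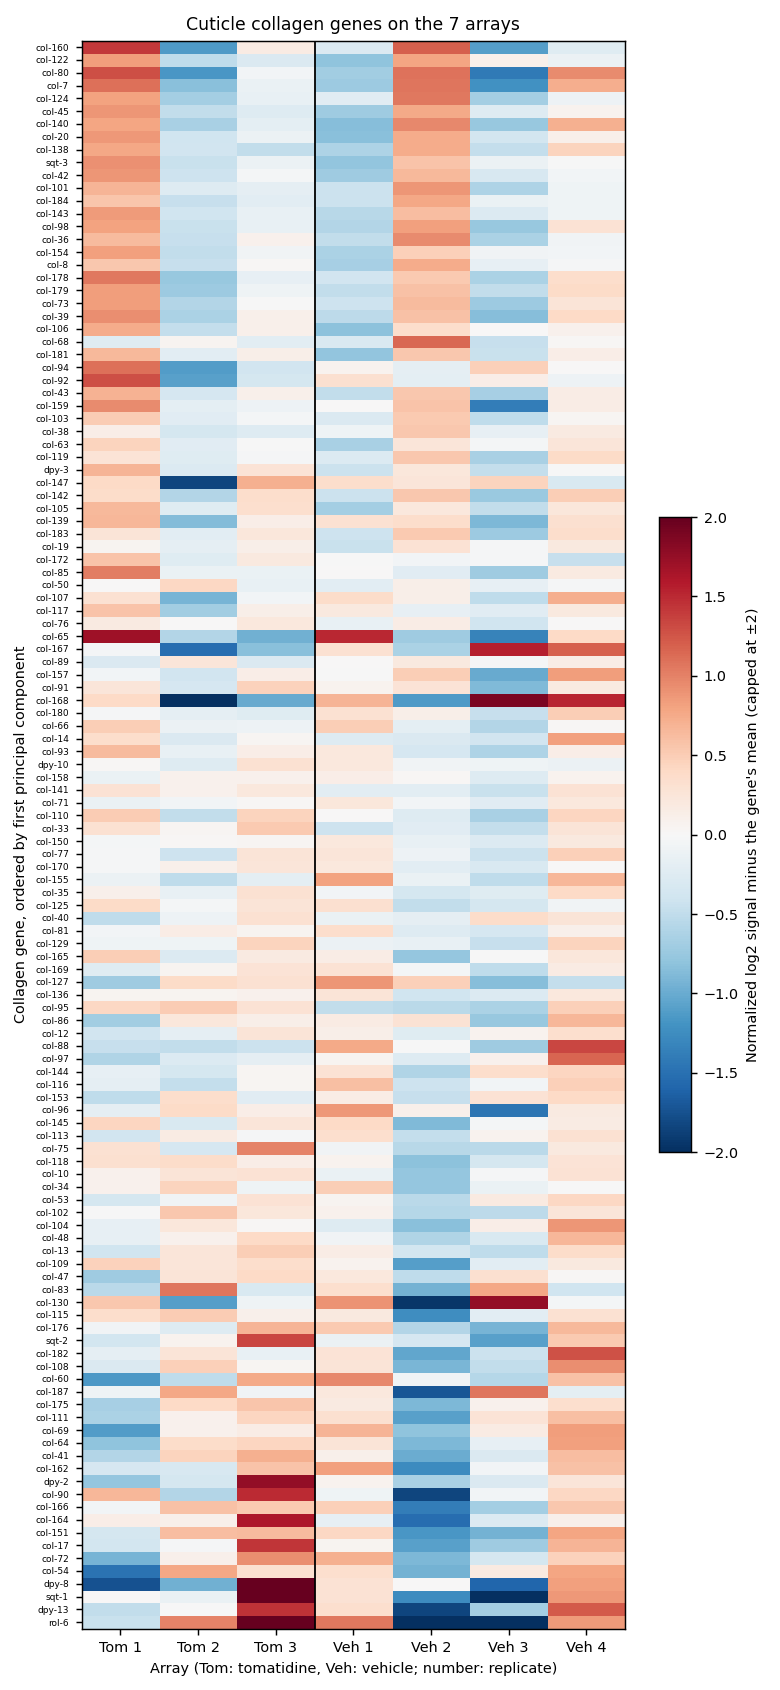
Deviation of the normalized log2 signal from each gene's mean (color, capped at ±2) for the 124 collagen genes (rows, ordered by their first principal component) on the 3 tomatidine arrays (left) and 4 vehicle arrays (right). Genes at the top are high on tomatidine replicate 1 and vehicle replicate 2, and genes at the bottom, *rol-6* last, are high on tomatidine replicate 3 and low on vehicle replicates 2 and 3.

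Counted by tag pair, the collagens leaned upward in pair A (median difference 0.21, 85 genes higher and 39 lower) and in pair B (0.23, 82 and 42) and downward in pair C (-0.09, 41 and 83). The medians of all genes in these pairs were -0.09, 0.03 and -0.005. Tomatidine was higher in all 3 pairs for 18 collagens (14.5%), against 11.1% of all genes, and in none for 6 collagens (4.84%), against 12.6% of all genes. The 18 were *rol-6*, *sqt-1*, *dpy-3*, *dpy-13*, *col-17*, *col-33*, *col-41*, *col-75*, *col-76*, *col-83*, *col-105*, *col-109*, *col-110*, *col-125*, *col-164*, *col-170*, *col-175* and *col-176*. On the vehicle array of pair A, *rol-6*, *sqt-1*, *col-17*, *col-75*, *col-83*, *col-109*, *col-164*, *col-175* and *col-176* were not well above background. Nor were *col-75*, *col-83*, *col-175* and *col-176* on its tomatidine array. The pair A signs of these genes thus rest on undetected values. The 6 were *col-12*, *col-19*, *col-38*, *col-69*, *col-97* and *col-184*, and *col-69* was not well above background on either array of pair A. Of these, *col-97* was the furthest from 0, with 6.63, 6.96 and 7.06 in tomatidine-treated worms against 7.29, 6.98, 7.32 and 8.39 in vehicle, a difference of -0.61 ± 0.35 (SE). All 4 of its other kept probes were also negative, at -0.54 to -0.18.

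Genes that make and finish collagen showed no change past the test. Of the prolyl hydroxylases, disulfide isomerases and other genes of collagen folding 10 of 11 were kept, 0 were called in either direction, and the median difference was -0.05. The 8 genes of collagen cleavage and cross-linking, such as the proprotein convertase gene *bli-4* and the dual oxidase gene *bli-3*, had a median of -0.04. The BMP pathway, which sets body size and acts on collagen genes, had 3 of 10 genes positive and a median of -0.10. Its Smad gene *sma-3* gave 9.43, 9.51 and 9.57 in tomatidine-treated worms against 9.77, 9.93, 9.89 and 9.998 in vehicle, with no overlap and a difference of -0.39 ± 0.19 (SE, unadjusted p = 0.0634, adjusted p = 0.9998 with limma).

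Transcription factors of the epidermis and of collagen genes had a median difference of -0.03, and *skn-1* itself gave 13.62, 13.60 and 13.40 in tomatidine-treated worms against 13.73, 13.69, 13.76 and 13.34 in vehicle. Of 8 further cuticle collagens outside the naming rule, such as *rol-8*, *dpy-5* and *bli-6*, 7 were positive, with a median of 0.37 and none past the test. Their mean level was 8.49, 8.17 and 9.24 in tomatidine-treated worms, against 8.55, 7.82, 7.87 and 9.01 in vehicle, again with vehicle replicates 2 and 3 lowest and tomatidine replicate 3 highest. The 29 cuticlin and zona pellucida genes kept had a median of -0.01, and the 3 basement membrane collagens, which belong to other collagen classes, a median of 0.11.

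The 124 genes lay on all 6 chromosomes, with 13 on I, 24 on II, 12 on III, 29 on IV, 24 on V and 22 on X. Among 17 pairs of collagen genes that are neighbors in the gene table, 6 had r of at least 0.8 across the arrays, among them *col-39* with *col-80* (0.98) and *col-178* with *col-179* (0.99), and 11 had differences of the same sign. Close paralogs can share probe binding, and the sequences that would show it were not used here. In 20 collagen genes more than 1 probe was kept, and of the 38 additional probes 22 had the sign of the leading probe, 20 correlated with it at r over 0.8 and 5 correlated below 0. The second kept probes of *col-7*, at r = -0.22, and of *sqt-3* were among these, so the profile described for *col-7* is that of its brighter probe.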

How the data were processed

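The data are 7 Agilent *C. elegans* arrays of 1 color. The intensity used is the processed signal that the authors deposited, which Agilent Feature Extraction 11.5.1.1 had corrected for background but not scaled between arrays. A table of each array's z-scores of log intensity, a score that the authors deposited too, was an alternative. Vehicle replicate 2 was not detrended multiplicatively, unlike the others. 

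Control and outlier spots were removed, and spots were averaged per probe on the log2 scale. Values were z-scored on each array and rescaled by the mean array SD. Probes were matched to RefSeq symbols (34543 of 43603 matched 1 gene). Probes had to be well above background on 3 or more arrays, and each gene was read from its brightest such probe. No array was saturated at any spot. Tomatidine and vehicle were compared with limma 3.58.1 (R 4.3.3; lmFit, eBayes with trend; two-sided; Benjamini-Hochberg at 0.05 over 14224 genes; 5 residual degrees of freedom), tested first on simulated data. The methods' t-test, the z-ratio and normexp (offset 50) with quantile normalization were among the alternatives. The small number of arrays limits the precision. Labels and methods name 4 independent experiments, but whether each array is 1 of them is not stated, so p-values measure the spread between these arrays. 

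Tag pairs were taken as pairing because deviations from group means correlated in each (r = 0.61, 0.19 and 0.51 for A, B and C across genes, which are not independent replicates). Unpaired arrays reached higher values than pair B, since vehicle replicate 1 gave 0.35 with tomatidine replicate 2 and 0.35 with tomatidine replicate 3. The arrays of pair A had the highest negative control signals, 237 and 424, and the part of background in their correlation was not tested. Equal title numbers gave r of -0.53, -0.45 and -0.33. With the tag block 2 residual degrees of freedom remain, and vehicle replicate 1, alone in its block, does not enter the difference. The arrays lie on 2 slides, with tomatidine replicate 1 and vehicle replicates 1, 2 and 3 on slide 1.

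The members and gene lists were chosen with earlier results of these data known. Named genes are those past the test, the up to 6 non-overlapping genes in each direction, the 12 listed names, 10 adult, dauer and longevity collagens, and the 6 with the largest SD within groups; others are marked as chosen after their values were seen or stand as examples of a group.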

Additional observations from a re-analysis of the deposited data

Results flagged for a closer look

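Dixon's criterion, which flags about 1 in 20 groups by chance, was applied to the vehicle arrays for 23 items. These were the 22 named genes and the mean deviation of the collagens. Over all 124 collagens the same criterion flagged 6. Among the named genes, 3 single values stood far from the other 3 arrays of the group. *col-95* gave 11.96 on vehicle replicate 4, against 10.85 to 10.99 on the other vehicle arrays. *col-144* gave 5.45 on vehicle replicate 2, against 6.32 to 6.48, and was not well above background there, and *dpy-10* gave 9.92 on vehicle replicate 1, against 9.58 to 9.63. The tomatidine group, with 3 arrays, was not examined in this way.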

How the results depend on the processing

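Of the genes tested, 11 were called in the comparison without a block. That count was 5 with normexp and quantile normalization, 7 with the raw median signal, 5 when a probe had to exceed background on all 7 arrays, 6 with limma without trend, 0 by the methods' t-test after adjustment (222 at unadjusted p), 23 with the label tag block, 29 with the title number block, 31 on slide 2 alone, and 1276 by a z-ratio of at least 1.5 in size. It ranged from 7 to 11 when single arrays were left out, the lowest without tomatidine replicate 2. With the tag block and another change together, it was 17 with a 75th percentile shift, 24 with normexp, 22 with the raw median signal, and 43, 22 and 37 without pair A, B or C.

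The collagens called, 0 without a block, numbered 2 with the tag block, 4 (all lower) on slide 2 alone, 1 without vehicle replicate 2 and tomatidine replicate 1 together, and 27 (18 higher, 14.5%, against 5.29% of all genes, and 9 lower, 7.26%, against 3.68%) by the z-ratio, which takes no account of spread. With the tag block they numbered 2 with a 75th percentile shift, 1 with normexp, 0 with the raw median signal, and 5, 2 and 1 without pair A, B or C. These counts are to be read beside those over all genes for the same settings, given in the paragraph above. *rol-6* was past the test whichever 1 pair was left out, and *sqt-1* only without pair A. Each of these fits rested on 2 pairs and left 1 residual degree of freedom, so they are a weak check of the calls. Slide 1 alone holds 1 tomatidine array and slide 2 alone 1 vehicle array, and each lone array was assumed to vary like the other group. The title number and slide blocks called 0 collagens, as did each removal of a single array.

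The collagen median of 0.13 was -0.25 on slide 2 alone and ranged from -0.015 without vehicle replicate 3 to 0.28 without tomatidine replicate 2. It was 0.02 with normexp and 0.06 with the raw median signal. The cause of these shifts was not tested.

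None of the 22 named genes was called in the comparison over all 7 arrays without a block. Of their 629 values under other settings, 64 changed sign, in 13 genes, and none of those 64 passed the test (limma, smallest adjusted p 0.238). The cause was not tested. On slide 2 alone *col-10* (-0.021), *col-13* (-8.0e-05), *col-65* (-1.17), *col-7* (-1.20), *col-95* (-0.074), *dpy-13* (-0.51) and *sqt-3* (-0.28) turned negative. On slide 1 alone *col-13* (-0.15), *dpy-2* (-0.49) and *dpy-8* (-1.31) turned negative and *col-130* (0.30) and *col-19* (0.12) positive. With the slide block *col-13* (-0.082), *dpy-13* (-0.11), *dpy-2* (-0.043) and *dpy-8* (-0.56) were negative. With a 75th percentile shift *col-19* was 0.015 and *col-65* -0.067, with normexp *dpy-10* was -0.047 and *sqt-3* -0.043, and with the raw median signal *col-65* was -0.013 and *dpy-10* -0.089. The mean of the kept probes gave *col-13* -0.19, *col-19* 0.044 and *dpy-10* -0.20, and the title number block gave *col-19* 0.060. Without vehicle replicate 2 and tomatidine replicate 1 together, *col-19* was 0.057, *col-65* -0.97 and *col-7* -0.077. The tag block gave *col-7* -0.15 and *sqt-3* -0.034. With it and a 75th percentile shift *col-7* was -0.16, with it and normexp *col-7* was -0.13, *dpy-10* -0.011 and *sqt-3* -0.11, and with it and the raw median signal *col-7* was -0.045 and *sqt-3* -0.089. Without pair A it gave *col-65* -0.31, *col-7* -0.24 and *sqt-3* -0.22, without pair B *col-130* 1.22, *col-144* 0.018 and *col-7* -0.41, and without pair C *dpy-10* -0.045, *dpy-2* -0.099 and *dpy-8* -0.57. When single arrays were left out, the sign changed in *col-130* (-1.09 to 0.15), *col-19* (-0.16 to 0.088), *col-65* (-0.74 to 0.60), *col-7* (-0.45 to 0.53), *dpy-10* (-0.10 to 0.18), *dpy-13* (-0.0073 to 1.05), *dpy-2* (-0.41 to 0.86), *dpy-8* (-1.24 to 1.21) and *sqt-3* (-0.20 to 0.48).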
